A study of Homo sapiens with 18 samples.

Results

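The genes described here encode the subunits of oxidative phosphorylation, complexes I to V, in MDA-MB-231 cells, a line of triple-negative breast cancer with a mesenchymal character. They were chosen by symbol as every protein-coding gene named NDUF with A, B, C, S or V and a number, UQCR, SDHA to SDHD, COX4 to COX8, ATP5, or MT-ND, MT-CO, MT-CYB and MT-ATP, which gave 102 of the 62703 genes in the files. Of these, 13 lie in the mitochondrial genome and 89 in the nucleus, with 44 in complex I, 4 in complex II, 10 in complex III, 22 in complex IV and 22 in complex V. NDUFA4 and NDUFA4L2 were counted with complex IV.

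The study asked what EZH2, the methyltransferase of the polycomb repressive complex PRC2, does together with the transcription factor E2F1. It sequenced poly(A)-selected RNA of 5 groups with 2 libraries each. Control shRNA, shEZH2 and shE2F1 cells were transduced with lentivirus for 24 h and selected with 2 µg/ml puromycin for 72 h, and DMSO and GSK126 cells were exposed for 72 h to the solvent or to 1 µM GSK126, an inhibitor of the catalytic activity of EZH2. All groups derive from the same cell line, and the labels do not say whether replicates were separate cultures, so that p-values measure the spread between libraries only.

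Complexes I to IV, the respiratory chain, pass electrons from NADH and succinate to oxygen. Complexes I, III and IV pump protons across the inner mitochondrial membrane, and complex V, the ATP synthase, uses the gradient to make ATP. Complex II is encoded in the nucleus alone, whereas the other complexes join subunits from both genomes, so that nuclear transcription, mitochondrial transcription and import have to be matched. The mitochondrial genes are transcribed from both strands of a circular genome into long RNAs that are cut into mRNAs, rRNAs and tRNAs. MT-ND6 is the member read from the light strand, and its mRNA is known to lack a poly(A) tail.

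Libraries held 13198932 to 20055550 counts, so that the limit a count of 0 sets was 0.150 to 0.227 CPM (counts-per-million). The line markers VIM, KRT8, KRT18, CD44 and EGFR were present in all 10 libraries. VIM was at 2739 and 2826 TPM (transcripts-per-million, a level per length) in control shRNA and 1357 and 1185 in shEZH2. Of the genes expected to be low in this line, PGR was at 0, ESR1 at most 0.17 TPM and ERBB2 at 20 to 35.6 TPM. CDH1, the last of them, was at 0.26 and 0.42 TPM in control shRNA, 2.76 and 1.39 in shEZH2 and 4.5 and 2.25 in shE2F1. The leukocyte gene CD3E was at 0 and PTPRC at most 0.46 TPM. EZH2 was at 90.8 and 102 TPM in the control shRNA libraries, 31.9 and 26.5 in shEZH2, and 77.1 and 90.8 in shE2F1. E2F1 was at 81.6 and 74.7 TPM in the control shRNA libraries, 16.1 and 14.6 in shE2F1, and also at 40.1 and 20.02 in shEZH2. Both targeted genes were thus lowest in the libraries labelled for them, and E2F1 was lower than in either control also after EZH2 knockdown. These are bulk samples, in which fewer cells of a kind and less RNA per cell cannot be told apart.

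Of the 102 genes, 95 had enough counts to be tested (82 nuclear and all 13 mitochondrial). COX6A2, COX7A1, COX8C and NDUFA4L2, forms known from muscle, testis or hypoxic cells, had no count in any of the 10 libraries, COX4I2 had 1 count in all, COX7B2 had 19 and ATP5MGL had 9. COX6B2, the testis form of COX6B, was tested at 0.645 and 0.910 CPM in control shRNA, 0.228 and 0 in shEZH2 and 0.193 and 0.0543 in shE2F1, close to the limit that a count of 0 allows, and no fold change is given for it. The isoforms detected were therefore those of most somatic tissues, namely COX4I1, COX6A1, COX6B1, COX7A2, COX8A and NDUFA4.

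Promoters are shown for the 5 genes that changed by more than 2-fold in a knockdown, since the motifs searched below lie there. Each is the 250 bases before the start of the gene in RefSeq on GRCh38.p14, read 5′ to 3′ on the strand of the gene, with any motif named below, on either strand, in capitals. UQCRC1 (ENSG00000010256) lies on the minus strand, with its window at chr3:48609647-48609896. COX7C (ENSG00000127184) lies on the plus strand, at chr5:86617691-86617940, and ATP5MC1 (ENSG00000159199) on the plus strand, at chr17:48892537-48892786. ATP5MC2 (ENSG00000135390) lies on the minus strand, and the first of its 3 listed windows is shown, at chr12:53676084-53676333. NDUFA6 (ENSG00000184983) lies on the minus strand, at chr22:42090773-42091022.
UQCRC1: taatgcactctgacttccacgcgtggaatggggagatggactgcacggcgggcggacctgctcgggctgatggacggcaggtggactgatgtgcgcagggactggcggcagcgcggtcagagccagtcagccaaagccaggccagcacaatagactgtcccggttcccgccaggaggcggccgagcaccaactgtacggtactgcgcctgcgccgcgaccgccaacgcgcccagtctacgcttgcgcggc
COX7C: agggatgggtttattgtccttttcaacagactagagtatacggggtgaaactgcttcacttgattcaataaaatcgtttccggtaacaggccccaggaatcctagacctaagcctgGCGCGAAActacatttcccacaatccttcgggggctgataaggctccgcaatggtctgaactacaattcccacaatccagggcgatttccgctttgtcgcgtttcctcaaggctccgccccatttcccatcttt
ATP5MC1: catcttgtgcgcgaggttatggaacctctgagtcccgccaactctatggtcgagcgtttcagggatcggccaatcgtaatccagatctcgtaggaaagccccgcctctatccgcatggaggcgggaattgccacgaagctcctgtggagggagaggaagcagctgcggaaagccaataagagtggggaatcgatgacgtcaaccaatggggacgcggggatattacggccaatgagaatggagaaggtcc
ATP5MC2: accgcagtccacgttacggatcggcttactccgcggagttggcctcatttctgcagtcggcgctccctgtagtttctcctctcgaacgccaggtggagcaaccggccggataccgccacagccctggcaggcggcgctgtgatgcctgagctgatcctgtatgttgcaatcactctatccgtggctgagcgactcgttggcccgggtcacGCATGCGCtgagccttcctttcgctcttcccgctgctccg
NDUFA6: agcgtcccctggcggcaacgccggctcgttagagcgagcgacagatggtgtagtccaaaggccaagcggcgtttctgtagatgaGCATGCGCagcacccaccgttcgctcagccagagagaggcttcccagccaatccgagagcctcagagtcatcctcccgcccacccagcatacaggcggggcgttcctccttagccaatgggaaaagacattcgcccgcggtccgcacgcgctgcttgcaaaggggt

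Short words bound by known regulators of respiratory genes were counted on both strands of the windows from 250 bases before to 50 bases after each start. Such windows were at hand for 70 of the 89 nuclear genes (83 windows). The NRF1 word GCGCATGC was in 15 of the 83 windows (18.1%) against 3.05% of all 35116 promoter windows, the ETS word CCGGAAG, bound by GABP, in 22 (26.5% against 10.3%), and the YY1 word AAGATGGCG in 10 (12.05% against 1.75%). E2F words (TTTGGCGC, TTTCCCGC, TTTCGCGC or TTTGCCGC) were in 8 windows (9.64% against 3.31%), and the ERR word TCAAGGTCA was in 1 (1.20% against 0.353%). In the tests of shE2F1 below, an E2F word was held by 0 of 9 genes higher and 0 of 14 lower at an adjusted p under 0.05. Of the 44 others with a window and a test, 7 held one. Whether E2F1 binds these words was not tested. No window held different words that shared bases. In the sequences printed, COX7C holds an E2F word 134 bases before its start, and ATP5MC2 and NDUFA6 hold NRF1 words 40 and 166 bases before theirs. UQCRC1 and NDUFA6 hold YY1 words just after the start, outside the stretch shown, and ATP5MC1 holds none of the words.

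In mean TPM, a level per length, the mitochondrial mRNAs other than MT-ND6 were above the nuclear ones. The 13 mitochondrial genes took 3.63% to 4.57% of all counts in the 10 libraries, and the nuclear genes 0.665% to 0.851%. Among mitochondrial genes the mean level over 10 libraries ran from 13481 TPM for MT-CO2, 9864 for MT-CO1 and 9787 for both MT-CO3 and MT-ND4L down to 2639 for MT-ND5 and 364 for MT-ND6. MT-ATP8 stood at 21037 TPM, but RSEM assigned this short gene an effective length of 36.0 to 58.5 bases, which makes its TPM uncertain. The nuclear genes led by COX8A, a small subunit of complex IV, at 1088 TPM (956 to 1272) and by ATP5MF, a subunit of the membrane part of complex V, at 1063 TPM (956 to 1216), whose ranges over the libraries overlapped.

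The ratio of summed mitochondrial to summed nuclear TPM differed between the knockdowns. It was 5.03 and 5.18 in control shRNA, 5.85 and 5.55 in shEZH2, 4.49 and 4.13 in shE2F1, 7.06 and 5.44 in DMSO and 6.97 and 5.21 in GSK126. Both shEZH2 libraries lay above, and both shE2F1 libraries below, both controls, while DMSO and GSK126 overlapped and their replicate 1 libraries stood apart from their replicate 2 libraries. The mitochondrial sum includes MT-ATP8, whose TPM is uncertain, and the ratio was not taken without it. From summed expected counts, which are not divided by length, the ratio was 5.01 and 5.16 in control shRNA, 5.59 and 5.48 in shEZH2 and 4.73 and 4.41 in shE2F1. The summed nuclear TPM was 19260 and 19528 in control shRNA, 19585 and 20477 in shEZH2 and 22137 and 22005 in shE2F1. As a share of counts the nuclear genes took 0.760% and 0.798% in control shRNA, 0.708% and 0.729% in shEZH2 and 0.851% and 0.822% in shE2F1. The shE2F1 libraries were above the controls in both measures, whereas the shEZH2 libraries were below them by share of counts and above them by TPM. The mitochondrial share of counts in shE2F1 (4.03% and 3.63%) overlapped with that of the controls (3.81% and 4.11%). These shares and sums carry no TMM scaling, the library scaling used in the tests. Its factors were 0.955 and 0.927 in control shRNA and 1.07 and 1.08 in shE2F1. The sums therefore do not show which side moved on the scale of the tests. On that scale the median log2 change in shE2F1 was -0.01 for nuclear and -0.09 for mitochondrial genes. An exact two-sided permutation test of 2 against 2 libraries cannot give a p under 0.333, so that these ratios are a description.

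**Figure D1:**
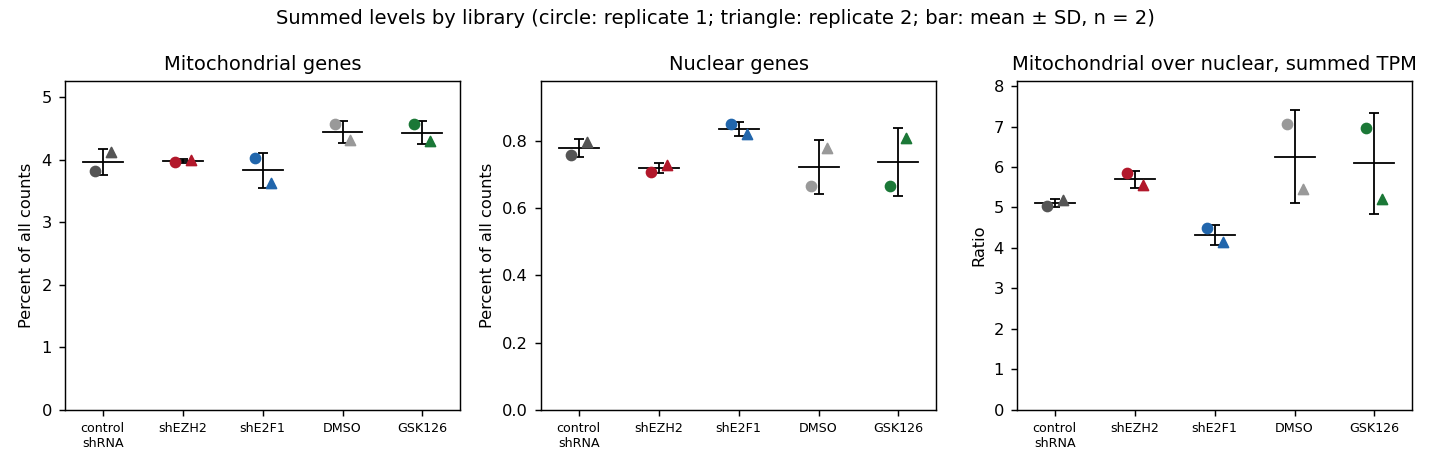
Each panel plots 1 value per library for the 5 groups: the percent of all counts from the 13 mitochondrial genes, the percent from the nuclear genes, and the ratio of their summed TPM. Circles are replicate 1, triangles replicate 2, and bars the mean ± SD (n = 2). The ratio is 5.70 ± 0.21 in shEZH2 and 4.31 ± 0.25 in shE2F1, on either side of 5.10 ± 0.10 in control shRNA, and the DMSO and GSK126 libraries spread from 5.21 to 7.06.

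After EZH2 knockdown more nuclear respiratory genes fell than rose, a balance that depended on the correction for length and GC content given further on. With that correction 25 nuclear genes were lower and 19 higher. The 4 single genes called below lay in complexes III, IV and V. The nuclear medians of these complexes were -0.34, -0.05 and -0.06 on the log2 scale, against -0.22 in complex I. Of the 95 genes, 34 were lower and 10 higher at an adjusted p under 0.05 (edgeR quasi-likelihood test, Benjamini-Hochberg over all 15373 genes tested), where 28.6% of all genes tested were lower and 27.0% higher. Nuclear genes accounted for 33 of those lower and 8 of those higher, with a median log2 change of -0.17 against -0.02 over all genes tested, and mitochondrial genes for 1 lower and 2 higher, with a median of 0.09. The number higher rested on single libraries: it was 4 without control shRNA replicate 1 or shEZH2 replicate 2 and 19 without control shRNA replicate 2. Of 82 nuclear genes, both shEZH2 libraries were below both controls for 43 and above for 16, against 39.4% and 38.1% of all genes. At an adjusted p under 0.01 and more than 2-fold, as the study set its limits, 4 genes were called, all lower, where 18.2% of all genes tested were called in either direction.

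The called genes were UQCRC1, COX7C, ATP5MC2 and ATP5MC1. UQCRC1 encodes core protein 1 of complex III and was at 168 and 156 CPM in control shRNA and 61.6 and 53.1 in shEZH2. Both shEZH2 libraries were far below every other library, and the change was 2.83-fold (log2 -1.50 ± 0.10 SE, n = 2 against 2; adjusted p = 2.44e-06). COX7C, a small nuclear subunit of complex IV, was at 131 and 151 CPM in control shRNA and 68.0 and 61.4 in shEZH2, again without overlap (log2 -1.13 ± 0.10; adjusted p = 1.01e-05 in the edgeR fit).

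ATP5MC1 and ATP5MC2 encode the same mature c subunit, whose ring turns in the membrane part of complex V. ATP5MC2 was at 129 and 139 CPM in control shRNA and 62.8 and 56.8 in shEZH2 (log2 -1.16 ± 0.10; adjusted p = 6.26e-06). ATP5MC1 was at 51.3 and 63.5 CPM in control shRNA and 29.8 and 26.5 in shEZH2 (log2 -1.03 ± 0.12; adjusted p = 5.97e-05). Both genes were lower in each shEZH2 library than in each control. ATP5MC3, the remaining gene for this subunit, was not past the threshold (log2 -0.22; adjusted p = 0.0735 by edgeR).

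Complex I, which takes electrons from NADH, had 16 of 37 nuclear genes lower and 5 higher, with a median of -0.22. Core subunits, which carry the flavin and iron-sulfur clusters, were among those lower. NDUFS8 was at 134 and 128 CPM in control shRNA and 71.5 and 76.5 in shEZH2 (log2 -0.82; adjusted p = 2.96e-05). NDUFS1, the largest subunit, was at 107 and 118 CPM in control shRNA and 79.7 and 73.1 in shEZH2 (log2 -0.56; adjusted p = 0.000645). In both genes the groups did not overlap. NDUFS7 changed by -0.58 and NDUFV1 by -0.52 on the log2 scale, but by -0.14 and -0.06, no longer past the threshold, with the correction for length and GC content given further on. NDUFS3 (-0.12, adjusted p = 0.325) and NDUFV2 (0.23, adjusted p = 0.0669) did not pass.

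The nuclear genes that rose most were also in complex I, among its accessory subunits, which surround the core. NDUFA12 was at 46.7 and 44.5 CPM in control shRNA and 66.4 and 72.3 in shEZH2 (log2 0.61 ± 0.10; adjusted p = 0.000394 by edgeR). NDUFB2 was at 71.9 and 73.9 CPM in control shRNA and 101 and 113 in shEZH2 (log2 0.55; adjusted p = 0.000559). Both were higher in each shEZH2 library than in each control. NDUFB2 shares positions with ADCK2 and BRAF, both expressed here, and the source does not state whether counting used the strand. COX7A2L, which joins complexes III and IV into supercomplexes, was at 78.0 and 88.4 CPM in control shRNA and 114 and 121 in shEZH2 (log2 0.50; adjusted p = 0.0015). NDUFS6 (0.36) and NDUFB7 (0.35) rose less in this fit, and either lost significance without control shRNA replicate 1 or shEZH2 replicate 2. With the correction for length and GC content the order changed. NDUFS6 then rose by 0.72 and NDUFB7 by 0.89, against 0.63 for NDUFA12, 0.67 for NDUFB2 and 0.46 for COX7A2L.

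Complex II had 1 of 4 genes lower, the flavoprotein SDHA, at 254 and 262 CPM in control shRNA and 200 and 192 in shEZH2 (log2 -0.40; adjusted p = 0.00219). SDHB, SDHC and SDHD had log2 values of 0.00, -0.08 and 0.21 and did not pass. Complex III had 5 of 9 nuclear genes lower and none higher (median -0.34), with UQCRC2 at -0.35 and the Rieske iron-sulfur protein UQCRFS1 at -0.34 besides UQCRC1. Both of these lost significance without shEZH2 replicate 2. UQCRH and its near-identical copy UQCRHL, between which reads may be split, did not pass (0.19 and 0.10).

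Complex IV, cytochrome c oxidase, had 5 of 13 nuclear genes lower and 2 higher (median -0.05). Besides COX7C and COX6B2, COX5B (63.0 and 61.9 CPM in control shRNA, 39.5 and 44.4 in shEZH2) changed by -0.57, COX6B1 by -0.49 and COX8A by -0.39 on the log2 scale, and COX6A1 rose by 0.25. COX8A did not pass with the length and GC correction (-0.07), and COX6A1 passed in only 8 of 18 alternatives. COX4I1 (0.12), COX5A (0.03), NDUFA4 (-0.07) and COX7A2 (-0.02) did not pass. Complex V had 6 of 19 nuclear genes lower and 1 higher (median -0.06). ATP5IF1, the inhibitor of the ATPase, was at 66.6 and 68.5 CPM in control shRNA and 37.5 and 37.9 in shEZH2 (log2 -0.84; adjusted p = 3.33e-05). The catalytic subunit ATP5F1B (-0.55) fell as well, as did ATP5F1A (-0.41), with no overlap between groups. The stalk subunit ATP5PO did not pass (0.10).

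**Figure D2:**
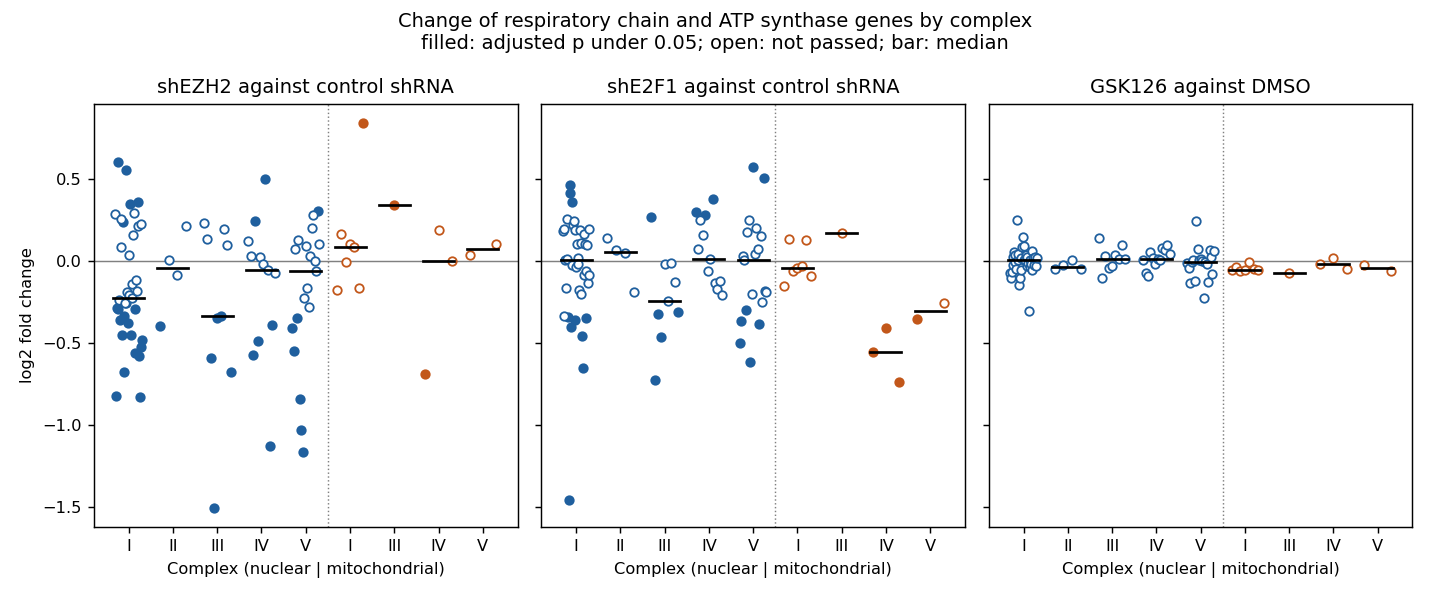
Log2 fold change of each tested gene by complex (x axis), nuclear genes left of the dotted line in blue and mitochondrial genes right of it in orange, for shEZH2, shE2F1 and GSK126 against their controls. Filled points passed an adjusted p of 0.05, open points did not, and bars are medians; COX6B2 is left out of the points. In shEZH2 the nuclear medians of complexes I and III are -0.22 and -0.34, in shE2F1 the 3 mitochondrial genes of complex IV are all below 0, and in GSK126 no point is filled.

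The balance of higher and lower nuclear genes depended on a correction for transcript length and GC content. The nuclear genes tested are short, with a median transcript length of 1627 bases against 3547 for all genes tested, and a median GC content of 47.2% against 48.0%. After each library was corrected for both properties, 21 genes were higher and 25 lower in place of 10 and 34, and the nuclear median was -0.01. Nuclear complex I then had 9 genes lower and 8 higher (median -0.06), complex III 5 and 3 (-0.35), complex IV 4 and 2 (-0.07) and complex V 6 and 5 (0.01). ATP5F1D, NDUFA13 and NDUFA11, which passed at -0.35, -0.29 and -0.29 without the correction, passed in the opposite direction with it, at 0.34, 0.34 and 0.29. UQCRC1 then changed by -0.98, COX7C by -1.09, ATP5MC2 by -1.01 and ATP5MC1 by -0.91, and all stayed past an adjusted p of 0.05. Whether length and GC content account for the smaller decreases was not tested further. Of the 33 lower nuclear genes 17, and of the 8 higher 3, passed in each of 18 alternatives, NDUFS8, NDUFS1, ATP5IF1, ATP5F1A, ATP5F1B, COX5B, COX6B1, SDHA, NDUFA12, NDUFB2 and COX7A2L among them.

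**Figure D3:**
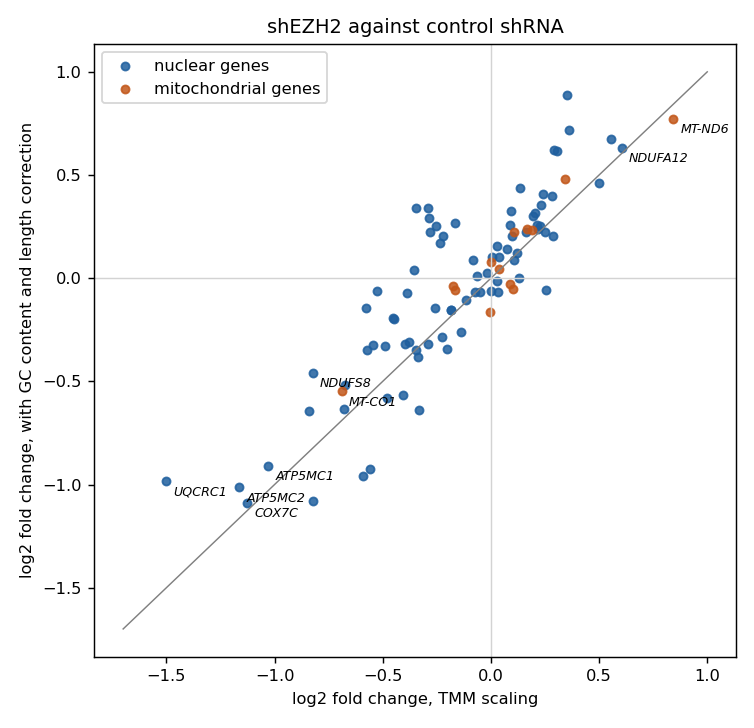
Log2 fold change of each gene in shEZH2 against control shRNA without (x axis) and with (y axis) the correction for length and GC content, with nuclear genes in blue, mitochondrial genes in orange and the line of equal values in grey; COX6B2 is left out. UQCRC1 moves from -1.50 to -0.98 and NDUFS8 from -0.82 to -0.46, while COX7C stays at -1.13 and -1.09, and many nuclear genes of small decrease lie above the line.

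Of the mitochondrial genes, MT-CO1, the catalytic subunit of complex IV, fell after EZH2 knockdown. It was at 9638 and 9773 CPM in control shRNA and 6436 and 5595 in shEZH2 (log2 -0.69 ± 0.10; adjusted p = 0.000227 by edgeR). The other mitochondrial subunits of complex IV did not pass, with MT-CO2 at 0.19 and MT-CO3 at -0.00 on the log2 scale. MT-ND6 rose from 54.8 and 104 CPM in control shRNA to 138 and 145 in shEZH2 (log2 0.84 ± 0.22; adjusted p = 0.00734). The controls differed widely from each other, and both shEZH2 libraries were above both. If counting ignored the strand, reads of MT-ND6 and of the transcripts opposite to it cannot be told apart. MT-CYB, the cytochrome b of complex III, rose from 1954 and 2143 CPM to 2535 and 2667 (log2 0.34; adjusted p = 0.0142), a difference that no longer passed without control shRNA replicate 1 or shEZH2 replicate 2. The remaining mitochondrial genes of complexes I and V had log2 values from -0.18 to 0.17 and did not pass.

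The mitochondrial rRNAs, which form the core of the mitochondrial ribosome and carry at most short A tails, moved with MT-ND6 in shEZH2. They took 0.623% and 0.653% of counts in control shRNA, 1.22% and 1.46% in shEZH2 and 0.732% and 0.614% in shE2F1. MT-RNR2 rose by 1.04 and MT-RNR1 by 0.60 on the log2 scale in shEZH2 (adjusted p = 6.35e-05 and 0.00132). Whether recovery of RNAs with short or no tails differed between these poly(A)-selected libraries was not tested. Reads assigned to nuclear copies of mitochondrial genes were 0.0593% to 0.0801% of counts, and of 7 such copies tested 1 was higher and 1 lower in shEZH2 and 2 were lower in shE2F1. MTCO1P12, a nuclear copy of MT-CO1, changed by -0.60 in shEZH2.

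After E2F1 knockdown the median change of the nuclear genes was close to 0 and the mitochondrial genes of complex IV fell. Of the 95 genes, 21 were lower and 9 higher at an adjusted p under 0.05, where 23.7% of all genes tested were lower and 21.1% higher. Of the nuclear genes 17 were lower and 9 higher (median log2 change -0.01, against -0.00 over all genes tested), and of the mitochondrial genes 4 were lower and none higher (median -0.09). With more than 2-fold and an adjusted p under 0.01, 1 gene was called, NDUFA6, where 11.6% of all genes tested were called. The number higher was 4 without control shRNA replicate 1, 1 without shE2F1 replicate 1 and 3 without shE2F1 replicate 2, and the number lower was 13 without control shRNA replicate 2 and 7 without shE2F1 replicate 2. With the length and GC correction, 28 genes were lower and 5 higher, and with an offset for effective length 20 were lower and 3 higher.

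All 3 mitochondrial subunits of complex IV were lower after E2F1 knockdown. MT-CO3 was at 3999 and 4376 CPM in control shRNA and 2700 and 2325 in shE2F1 (log2 -0.74 ± 0.10; adjusted p = 0.000225 by edgeR). MT-CO1 was at 6895 and 6334 CPM in shE2F1 (log2 -0.55 ± 0.10 against the controls above; adjusted p = 0.00136). Neither overlapped with the controls, and both passed in all 18 alternatives. MT-CO2 was at 4250 and 4999 CPM in control shRNA and 3704 and 3280 in shE2F1 (log2 -0.41; adjusted p = 0.0143), and MT-ATP6, a proton channel subunit of complex V, was at 2869 and 3199 CPM in control shRNA and 2523 and 2223 in shE2F1 (log2 -0.35; adjusted p = 0.0154). These groups did not overlap either, but both lost significance without control shRNA replicate 2 or shE2F1 replicate 2. MT-ND6 was at 79.3 and 69.4 CPM in shE2F1, between the controls, and its log2 value of -0.09 turned to 0.45 without control shRNA replicate 2. The other mitochondrial genes had log2 values from -0.26 to 0.17 and did not pass.

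**Figure D4:**
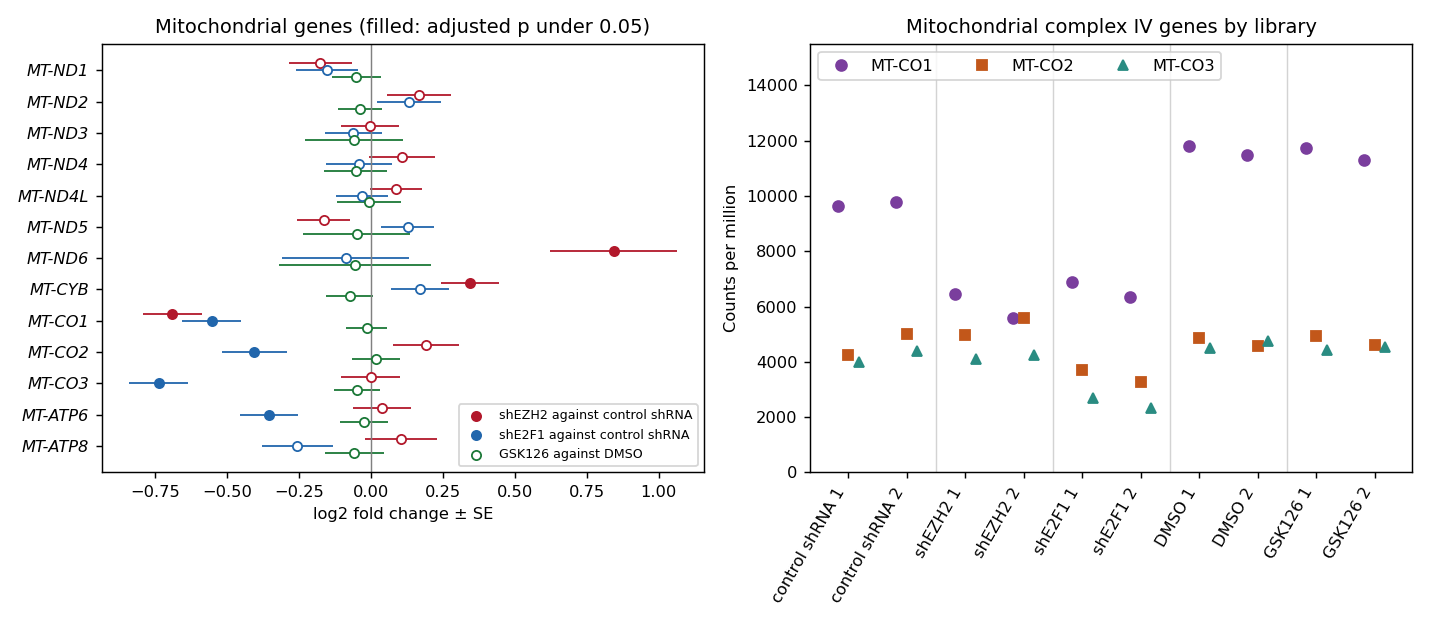
Left, log2 fold change ± SE of the 13 mitochondrial genes in shEZH2, shE2F1 and GSK126 against their controls, filled where the adjusted p was under 0.05. Right, CPM of MT-CO1, MT-CO2 and MT-CO3 in each of the 10 libraries. MT-CO1 lies between 5595 and 6895 CPM in the 4 libraries of both knockdowns and at 9638 or more in the other 6, whereas MT-CO3 is low (2325 and 2700) in the shE2F1 libraries.

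NDUFA6, an accessory subunit of complex I of the LYR family, changed most among nuclear genes in shE2F1. It was at 43.4 and 47.7 CPM in control shRNA, 47.2 and 49.7 in shEZH2 and 17.8 and 15.3 in shE2F1, with 36.6 to 46.9 in the drug experiment. The shE2F1 libraries stood below every other library, a 2.74-fold change (log2 -1.46 ± 0.12; adjusted p = 6.55e-06 in the edgeR fit) that met both thresholds in all 18 alternatives. Nuclear complex I otherwise had 7 of 37 genes lower, NDUFA6 included, and 3 higher (median 0.01). The core subunits NDUFS1 (-0.46) and NDUFS7 (-0.35) were lower, but did not pass without shE2F1 replicate 2. NDUFA8 rose from 50.8 and 54.0 CPM to 72.4 and 72.0 (log2 0.46; adjusted p = 0.00211), without overlap. NDUFA7 rose by 0.42, a value lost in 8 alternatives, and it overlaps another gene from which its reads could not be cleanly divided.

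In complex II no gene passed in shE2F1, with log2 values from -0.19 to 0.14. Complex III had 4 of 9 nuclear genes lower and 1 higher (median -0.24), with UQCR11, a small subunit, at 81.8 and 86.8 CPM in control shRNA and 56.4 and 45.6 in shE2F1 (log2 -0.72; adjusted p = 0.00164). UQCR11 (mean of 1385 counts) overlaps another gene on its strand (mean of 477 counts), so that reads may be divided between them. UQCRC1 was at 122 and 114 CPM in shE2F1, below both controls (log2 -0.46; adjusted p = 0.00344), a difference that no longer passed without shE2F1 replicate 2. In complex IV 3 of 13 nuclear genes were higher and 1 lower, the last being COX6B2. COX7A2L (0.38), COX4I1 (0.30) and COX6B1 (0.28) rose, and each lost significance without shE2F1 replicate 1. Complex V had 5 of 19 lower and 2 higher. ATP5MC2 was at 89.3 and 85.9 CPM in shE2F1, below both controls (log2 -0.61; adjusted p = 0.000416), and ATP5F1A was at 561 and 586 CPM in control shRNA and 433 and 379 in shE2F1 (log2 -0.50; adjusted p = 0.00168). ATP5ME (0.57) and ATP5PD (0.50), both of the peripheral or membrane part, rose but lost significance without shE2F1 replicate 1.

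Both knockdowns were compared with the same 2 control libraries, so that their values are given side by side, and the difference was tested in a direct contrast that uses no control. In that contrast 31 of the 95 genes were lower and 19 higher in shEZH2 than in shE2F1, where 30.6% of all genes tested were lower and 29.7% higher. Nuclear genes were lower in 30 cases and higher in 14 (median log2 difference -0.10), and mitochondrial genes higher in 5 and lower in 1 (median 0.15). The 5 genes called at more than 2-fold and an adjusted p under 0.01 (where 23.3% of all genes were called) were ATP5MC1, UQCRC1, NDUFB1 and ATP5IF1, lower in shEZH2, and NDUFA6, higher. Without shE2F1 replicate 1, 12 were higher and 17 lower, and without shE2F1 replicate 2, 10 were higher. With the length and GC correction, 30 genes were higher and 20 lower.

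ATP5MC1 was lower in shEZH2 than in shE2F1 by 1.28 on the log2 scale, UQCRC1 by 1.04 and ATP5IF1 by 1.02. With the length and GC correction ATP5MC1 stayed past 2-fold (-1.14), while UQCRC1 (-0.52) and ATP5IF1 (-0.79) passed at less than 2-fold. For ATP5MC1 and ATP5IF1, shE2F1 libraries (69.6 and 66.7 CPM, and 77.0 and 75.6 CPM) were above both controls, without passing the test against them. NDUFB1, an accessory subunit of complex I, was at 27.9 and 27.1 CPM in control shRNA, 18.1 and 16.3 in shEZH2 and 35.8 and 34.8 in shE2F1, so that the knockdowns lay on opposite sides of the controls (log2 -0.68 and 0.36; adjusted p = 0.000653 and 0.0235 by edgeR). The increase in shE2F1 passed in only 9 of 18 alternatives, and not with the length and GC correction (0.23, adjusted p = 0.121). COX6B1 was likewise at 103 and 121 CPM in control shRNA, 78.1 and 81.3 in shEZH2 and 139 and 133 in shE2F1. NDUFA6 was higher in shEZH2 than in shE2F1 by 1.55, UQCR11 by 0.86, NDUFA12 by 0.60 and ATP5MJ by 0.59.

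Among the mitochondrial genes, MT-ND6 was higher in shEZH2 than in shE2F1 by 0.93, MT-CO3 by 0.74 and MT-CO2 by 0.60 on the log2 scale, and these 3 passed in all 18 alternatives (adjusted p = 0.00377, 0.000119 and 0.00101). MT-ATP6 (0.39) and MT-ATP8 (0.36) were higher and MT-ND5 lower (-0.29) as well, each losing significance when a library was left out. MT-CO1 did not differ past the threshold between the knockdowns (log2 -0.14).

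**Figure D5:**
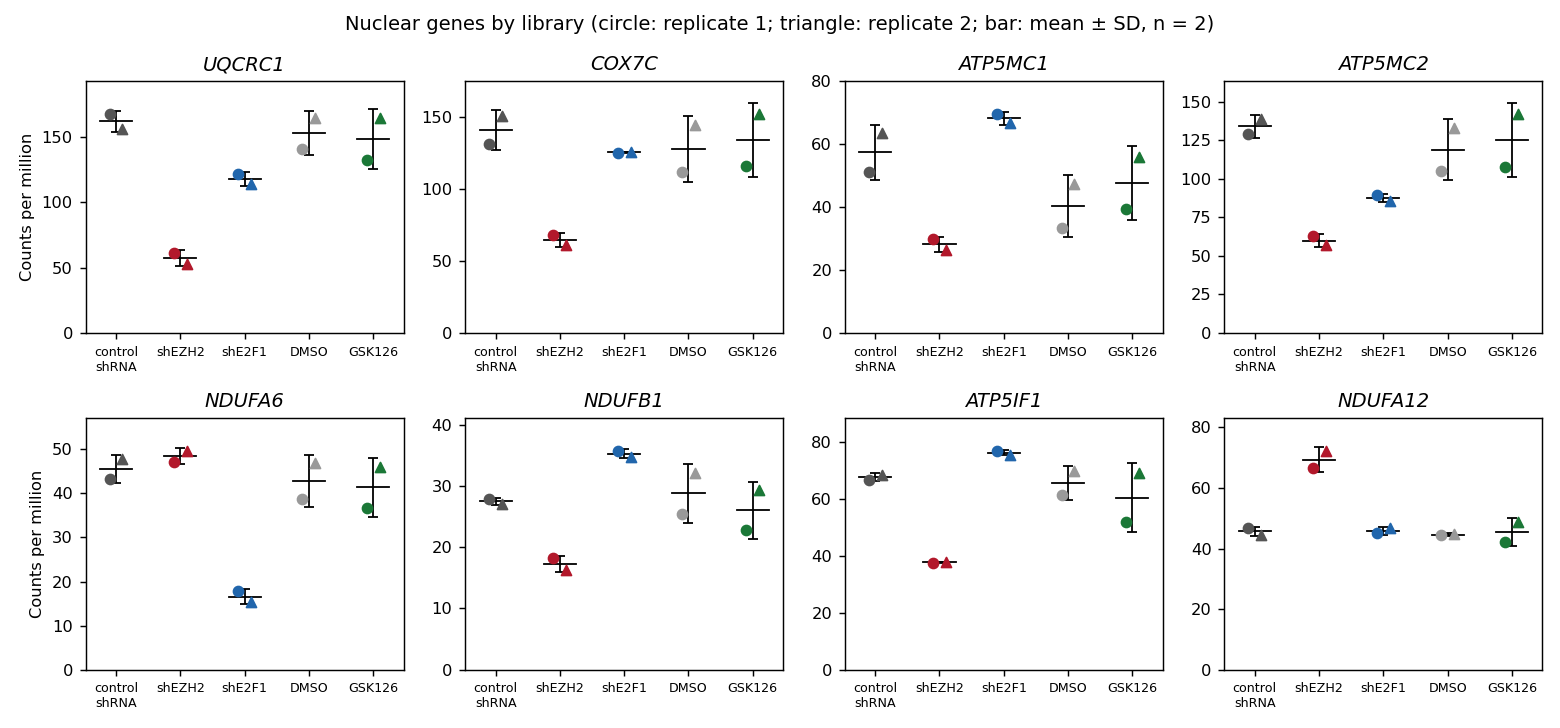
CPM of 8 nuclear genes in the 10 libraries, by group, with circles for replicate 1, triangles for replicate 2 and bars for the mean ± SD (n = 2). UQCRC1, COX7C, ATP5MC1, ATP5MC2, NDUFB1 and ATP5IF1 are lowest in shEZH2, NDUFA6 is lowest in shE2F1 (17.8 and 15.3 CPM), and NDUFA12 is highest in shEZH2 (66.4 and 72.3 CPM). In DMSO and GSK126 each gene is higher in replicate 2 than in replicate 1.

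In the fit without a block for the replicate number, none of these genes passed the threshold with GSK126. In this edgeR fit of the 4 drug libraries no gene of the 14632 tested (0%) had an adjusted p under 0.05, and none of the 95 did. At an unadjusted p under 0.05, 3.94% of all genes tested passed and none of the 95, and DESeq2 called none of the 95 either. Mitochondrial genes had log2 values from -0.07 to 0.02 and nuclear genes from -0.30 to 0.25. UQCRC1 was at 141 and 165 CPM in DMSO and 132 and 165 in GSK126, and MT-CO1 at 11815 and 11465 CPM in DMSO and 11754 and 11288 in GSK126. Within each drug group the replicate 2 library held more nuclear transcripts of these genes than replicate 1 (0.781% against 0.666% of counts in DMSO and 0.808% against 0.665% in GSK126). This spread was wider than the difference between the groups and went the same way in both. With a block for the replicate number, 1 of the 95 was higher and 3 lower, where 13.6% of all genes tested passed.

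The effect of EZH2 knockdown was set against that of GSK126 by testing the difference of both effects over all 10 libraries. Of the 95 genes, 13 had a more negative and 3 a more positive effect in the knockdown, where 19.7% and 16.9% of all genes tested did. At more than 2-fold and an adjusted p under 0.01, 4 genes were called, where 13.8% of all genes were. These were UQCRC1 (log2 difference -1.45 ± 0.19; adjusted p = 0.000188), ATP5MC1 (-1.26), ATP5MC2 (-1.22) and COX7C (-1.18). MT-CO1 (-0.66 ± 0.14; adjusted p = 0.00258) and these 4 passed in all 20 alternatives. The number more negative was 7 without DMSO replicate 1 or GSK126 replicate 2, 8 without control shRNA replicate 2 or shEZH2 replicate 2, and 22 without DMSO replicate 2 or GSK126 replicate 1. The number more positive ran from 0 without shEZH2 replicate 2 to 5 without control shRNA replicate 2, and was 1 without control shRNA replicate 1, DMSO replicate 2 or GSK126 replicate 1. With the length and GC correction the split was 18 more positive and 15 more negative. The labels describe transduction and selection for the knockdowns alone, so that their part and that of how EZH2 was affected cannot be told apart.

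Genes that build, regulate or express the complexes were counted in lists beside the members. Over all genes tested, 28.6% were lower and 27.0% higher in shEZH2, and 23.7% lower and 21.1% higher in shE2F1. Of 48 assembly factors, 23 were lower (47.9%) and 6 higher (12.5%) in shEZH2, with a median of -0.28. With the length and GC correction 20 were lower and 9 higher (median -0.29). NDUFAF3, needed for early complex I assembly, was at 43.4 and 36.9 CPM in control shRNA and 9.72 and 3.46 in shEZH2 (log2 -2.66; adjusted p = 5.19e-05 by edgeR). ACAD9, another complex I assembly factor, was at 49.5 and 42.9 CPM in control shRNA and 17.5 and 14.6 in shEZH2 (log2 -1.53; adjusted p = 6.42e-06). Neither overlapped, and SDHAF4 (-1.56), UQCC2 (-1.51), COA4 (-1.48) and FOXRED1 (-1.25) fell too, which are factors of complexes II, III, IV and I. In shE2F1, 11 of the 48 were lower (22.9%, near the share of all genes) and 7 higher (14.6%), with a median of -0.06. COX20, a chaperone of MT-CO2 protein, was at 46.4 and 55.2 CPM in control shRNA and 23.6 and 22.5 in shE2F1 (log2 -1.14; adjusted p = 6.55e-05), and SDHAF3 (-1.22), COX18 (-0.81) and COX11 (-0.76) were lower as well.

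Of 78 mitochondrial ribosomal protein genes, 40 were lower (51.3%) and 4 higher (5.13%) in shEZH2, with a median of -0.27. With the length and GC correction 30 were lower and 15 higher (median -0.07). MRPL17 (-1.36) and MRPL53 (-1.34) fell most there. In shE2F1, 19 were lower and 12 higher (median -0.06), with MRPL48 at -1.24 and MRPL53 at -1.18. Of 28 genes of mitochondrial transcription and RNA handling, 10 were higher and 7 lower in shEZH2 (median 0.07), and 3 higher and 2 lower in shE2F1. TFAM, which packages and transcribes mitochondrial DNA, was at 65.4 and 81.0 CPM in control shRNA and 113 and 120 in shEZH2 (log2 0.67; adjusted p = 0.000549), and at 58.8 and 64.0 in shE2F1. HSD17B10, a subunit of the mitochondrial RNase P that frees tRNAs from precursor RNA, was at 19.4 and 22.1 CPM in control shRNA, 88.6 and 107 in shEZH2 and 67.0 and 71.4 in shE2F1 (log2 2.24 and 1.74). In both genes the shEZH2 libraries were the highest of all 10.

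Among 12 nuclear regulators tested, 4 were higher and 1 lower in shEZH2, and 1 higher and 6 lower in shE2F1. PPARGC1A, the coactivator PGC-1α, was at 0.914 and 0.364 CPM in control shRNA, 4.33 and 3.05 in shEZH2 and 2.61 and 2.12 in shE2F1 (log2 2.48 and 1.85; adjusted p = 0.000643 and 0.0058). ESRRA, an orphan receptor that works with it, was at 65.5 and 68.5 CPM in control shRNA and 36.7 and 27.4 in shEZH2 (log2 -1.07; adjusted p = 5.9e-05), and at 74.2 and 75.2 in shE2F1. PPARGC1A was thus above both controls in every knockdown library, though at low counts, and ESRRA was below them in shEZH2. MYC was at 97.6 and 107.7 CPM in control shRNA, 123 and 126 in shEZH2 and 50.4 and 61.0 in shE2F1 (log2 -0.88 in shE2F1; adjusted p = 0.000104). Of the 4 subunits or carriers that the symbol rule leaves out, 1 was higher and 1 lower in shEZH2, and 1 lower in shE2F1 (25% in each case). CYC1, the cytochrome c1 of complex III, was at 174 and 191 CPM in control shRNA and 103 and 88.5 in shEZH2 (log2 -0.93; adjusted p = 3.34e-05), a difference that no longer passed with the length and GC correction. No gene of these lists passed with GSK126 in the fit without a block.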

How the data were processed

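Libraries were made from poly(A)-selected RNA of MDA-MB-231 cells with a directional kit. Of 18 sample records, 8 repeated another value for value, which left 10 distinct libraries, 2 in each of 5 groups taken from the labels. Per the labels, the authors mapped reads with STAR 2.7.2b to GRCh38 and counted with RSEM 1.3.1. The deposited files hold RSEM expected counts per gene, in which reads shared by genes are divided, and TPM, which the authors' tool scaled by each gene's effective length. Whether counting used the strand is not given in the sources used here. Symbols came from GENCODE 44, in which 62625 of 62703 gene identifiers were found. RefSeq promoter windows are on GRCh38.p14.

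After rounding of expected counts, edgeR 4.0.16 (in R 4.3.3) was used with filterByExpr, TMM scaling and the quasi-likelihood test with group as the only term, and p-values were adjusted by Benjamini-Hochberg over every gene in the fit. Libraries of the knockdowns (6) and of the drug (4) were fitted apart, and all 10 together for the difference of effects. CPM are TMM-scaled. A gene passed at an adjusted p under 0.05 and was called, as in the study, at an adjusted p under 0.01 and more than 2-fold. The authors used DESeq2, which was run as an alternative (version 1.42.0). In simulated data for shEZH2, 100% of genes with a log2 change of 1 and 58% of those with 0.5 were recovered, and 99% and 24% for GSK126. The changed genes all had a mean of at least 200 counts, so that recovery at lower counts was not measured. Each simulated library varied independently, without the shared deviation of same-numbered drug libraries.

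Genes, lists, tests and thresholds were chosen with earlier results of these data known. Genes named were the mitochondrial genes, a fixed set of core subunits and paralogs, every gene called, the 5 nuclear genes per direction with the largest change past the threshold at a mean of at least 200 counts, and at most 6 per further list; some of these are not reported here. Floors, at 3 counts, cover counting error only. Alternatives comprised scaling, filters, tool, libraries fitted, effective length, GC content and length, the replicate block and each replicate left out.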

Additional observations from a re-analysis of the deposited data

How the results depend on the processing

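Calls per direction held within 1.5 times the reported count under scaling by size factors, upper quartiles or without mitochondrial genes, DESeq2, and fits of 4 libraries, except as follows. For shEZH2 against control shRNA the number of genes higher (10) was 5 in a fit of all 10 libraries, 6 with the effective length offset, 21 with the GC content and length correction, 22 with that correction and the replicate block, and 0 at more than 2-fold and an adjusted p under 0.01, where 4 were lower; the nuclear median was -0.01 with the correction, with or without the block (-0.005847 and -0.005763). For shE2F1 the number higher (9) was 14 at a mean of at least 50 counts, 4 in a fit of all 10 libraries, 3 with the length offset, 5 with the correction, 5 with correction and block, and 0 under the stricter rule, where 1 was lower; the mitochondrial median was -0.23 with the correction and -0.23 with the block as well. For shEZH2 against shE2F1, the correction gave 30 higher and 20 lower (29 and 20 with the block), nuclear medians of 0.10 and 0.10 and mitochondrial medians of 0.36 and 0.36, and the stricter rule gave 1 and 4. For GSK126 the replicate block gave 1 higher and 3 lower, where 13.6% of all genes passed in place of 0%, and the correction with the block 1 and 9, where 16.55% did. For the difference of the shEZH2 and GSK126 effects, 5 and 20 passed with no filter on low counts, 9 and 29 with the block, 18 higher with the correction, 27 higher with correction and block, and 0 and 4 under the stricter rule. The mitochondrial to nuclear ratio in shE2F1 was 4.57 from summed counts, and the mitochondrial share in shEZH2 4.05% with nuclear copies added. The cause of these shifts was not tested, other than the stricter rule's own construction.

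Genes that passed and changed sign with the correction were, besides ATP5F1D, NDUFA13 and NDUFA11 in shEZH2 as described above, NDUFA3 in shEZH2 (0.04), and between the knockdowns ATP5F1D (from -0.35 to 0.36, past the threshold), NDUFA11 (0.08), NDUFA3 (0.07), NDUFV1 and COX8A (0.034 and 0.10, and 0.0345 and 0.10 with the block), the last 4 not past the threshold. Many named values that had not passed changed sign in some setting, such as MT-ND3, MT-CO3 and COX7A2 in shEZH2. MT-ND6 in shE2F1 (-0.09) ran from -0.49 to 0.45 with each library left out, the highest without control shRNA replicate 2.

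With each library left out in turn, where a lone library is assumed to vary like the others, shEZH2 had 4 to 19 genes higher (fewest without control shRNA replicate 1, most without replicate 2) and 25 to 32 lower, a nuclear median of -0.24 to -0.093 and a mitochondrial median of -0.043 to 0.18. shE2F1 had 1 to 11 higher (fewest without shE2F1 replicate 1) and 7 to 28 lower (fewest without shE2F1 replicate 2), with medians of -0.07 to 0.05 and -0.23 to 0.025. Between the knockdowns 10 to 19 were higher and 17 to 32 lower (fewest without shE2F1 replicates 2 and 1), with medians of -0.13 to -0.05 and 0.09 to 0.22. GSK126 had 0 to 0 in either direction and medians of -0.17 to 0.15 and -0.06 to -0.02. The difference of effects had 0 to 5 higher (fewest without shEZH2 replicate 2) and 7 to 22 lower (fewest without DMSO replicate 1, most without DMSO replicate 2), with medians of -0.30 to 0.02 and -0.01 to 0.19.

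Replicate numbers were not stated to mark a shared day or culture. Deviations of same-numbered libraries from their group means correlated at 0.62 between DMSO and GSK126 and at 0.04 to 0.22 between knockdown groups (11919 genes, which are not independent), and the block left 1 residual degree of freedom in the drug fit. Log2 changes of 0.5 in single genes were often missed at this depth and replication, so that genes that did not pass may differ by that much.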
